A study of Mus musculus with 10 samples.

Results

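Antioxidant, glutathione and metallothionein genes were followed across 10 hybridisations of macrophage RNA on spotted cDNA arrays. The genes were taken by symbol: peroxiredoxins, glutathione S-transferases, glutathione peroxidases, superoxide dismutases, thioredoxins, glutaredoxins and metallothioneins, with catalase, the enzymes of glutathione synthesis, haem oxygenase, Nqo1, Keap1 and ferritin. Symbols alone define the membership, but the families were picked with earlier results of these arrays known. Of 9596 array features, 42 carried 1 such symbol, and they stood for 40 of 6795 named genes, with 2 features each for Sod2 and Prdx2. Several other genes of these pathways, among them Nfe2l2, Srxn1, Gsr, Hmox2, Prdx6 and Txnip, were not analysed here.

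Each array set RNA of a pair of conditions against each other in different channels, and each value is the log2 ratio between them. TAM were adherent tumour-associated macrophages taken from mice 3 weeks after a tumour was implanted. PEC were adherent peritoneal exudate cells, labelled as peritoneal macrophages. All mice were C57/6N aged 8 weeks, and both kinds of cell were held in culture. The conditions were TAM with 100 ng/mL lipopolysaccharide (LPS, a bacterial cell wall component that activates macrophages) for 4 hours, untreated TAM, PEC with the same LPS dose and time, and untreated PEC. Untreated TAM were set against untreated PEC on 4 arrays (named TAM-b, TAM-8, TAM-2R and TAM-3). TAM with LPS were set against untreated TAM on 2 arrays (TAM-trial and TAM-16). PEC with LPS were set against untreated PEC on 2 arrays (PEC1 and PEC2). TAM with LPS were set against PEC with LPS on 2 arrays (TAM1 and TAM7). The labels of the arrays of untreated TAM against PEC place both kinds of cell in mice that carried a tumour, whereas those of PEC1 and PEC2 mention none. The tumour is not named in the labels, adherence is the selection they give, and they do not say whether arrays of a comparison came from separate animals or cultures. A p-value here therefore covers no more than how these hybridisations scatter, and that scatter may be technical. In RNA from a whole dish, fewer cells of a type and less RNA per cell cannot be told apart.

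Activated macrophages make superoxide and other oxidants, and these genes limit what the oxidants do to the cell itself. Superoxide dismutases turn superoxide into hydrogen peroxide, which catalase, peroxiredoxins and glutathione peroxidases remove. The reducing power for both kinds of peroxidase comes from NADPH by way of thioredoxin and glutathione. Glutathione S-transferases couple glutathione to reactive molecules, and metallothioneins are small cysteine-rich proteins that hold zinc and copper. Many of these genes are targets of the transcription factor NRF2, which the protein KEAP1 holds back until electrophiles or oxidants modify it, and metallothionein genes are switched on by the zinc-sensing factor MTF1.

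The dyes are not named in the labels, so every direction given here is likely and not certain. The basis is that, of 30 LPS-induced genes such as Tnf and Il1b, 21 were measured, and 18 on PEC1 and 20 on PEC2 lay above 0 when channel 2 was read over channel 1. On TAM-2R and TAM1 the conditions sat in the opposite channels, and these values were given the opposite sign. With that sign Fcna, picked for its large values, lay between -6.04 and -4.09 on the 4 arrays of untreated TAM over PEC. On TAM1 and TAM7 it lay between -5.06 and -4.93. Read the other way, TAM-2R and TAM1 would stand above 0 for Fcna, opposite to the other arrays. In untreated TAM over PEC 41 genes and features passed with that sign and 0 read the other way. Means read the other way are given below as a check and not as an equal reading. Arrays of 1 comparison correlated weakly, with Pearson r between 0.04 and 0.33 over all features and between -0.12 (TAM-trial with TAM-16) and 0.41 over the 40 genes. From 4.39% (TAM1) to 49.1% (TAM-b) of an array's variance went with the place of a feature within blocks of 96 consecutive feature numbers. Genes of 1 family, such as the mu-class transferases Gstm1, Gstm2, Gstm5 and Gstm6 or the metallothioneins Mt1 and Mt2, have similar sequences, and a cDNA spot can bind the transcripts of more than 1 of them, so values within such a family are uncertain as to the member.

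Letters of the start regions of some of the genes are shown first. RefSeq windows on GRCm38.p6, from 250 bases before to 50 bases after a gene's start, were found for 34 of the 40 genes (43 windows, some of them overlapping). They were searched on both strands for TGACNNNGC, the core of the antioxidant response element to which NRF2 binds, and for TGCGCNC or TGCACNC, the core of the metal response element to which MTF1 binds. The antioxidant core was in 8 of the 43 windows (8 genes) and in 12.4% of 32851 mouse windows of the same length, and the metal core in 14 of the 43 (12 genes) and in 25.7% of all. At least 3 metal cores were in 1.97% of all windows and in those of Mt1, Mt2 and Gclm. In Gclm a metal core and an antioxidant core share letters. The windows printed are those of the metallothionein genes Mt1 and Mt2, which had the highest ratios with LPS in PEC, one of Txnrd1, whose values there were close on both arrays, and one of Gstm1, which had the lowest p-value in both comparisons of TAM with PEC. Capitals mark the matches, and a match is a description of letters and not a binding site.
Mt1, GRCm38.p6 chr8:94178839-94179138, plus strand: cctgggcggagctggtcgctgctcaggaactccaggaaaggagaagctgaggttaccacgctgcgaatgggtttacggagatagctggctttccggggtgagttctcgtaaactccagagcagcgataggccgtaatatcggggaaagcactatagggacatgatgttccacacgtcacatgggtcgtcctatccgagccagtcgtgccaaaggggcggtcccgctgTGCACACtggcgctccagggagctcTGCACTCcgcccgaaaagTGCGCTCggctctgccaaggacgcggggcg
Mt2, GRCm38.p6 chr8:94172368-94172667, plus strand: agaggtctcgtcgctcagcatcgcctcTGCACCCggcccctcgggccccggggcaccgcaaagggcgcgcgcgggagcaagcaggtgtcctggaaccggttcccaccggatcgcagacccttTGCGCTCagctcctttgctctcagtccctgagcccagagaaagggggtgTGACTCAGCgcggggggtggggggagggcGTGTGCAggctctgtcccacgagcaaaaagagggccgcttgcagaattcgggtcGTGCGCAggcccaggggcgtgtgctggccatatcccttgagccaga
Txnrd1, GRCm38.p6 chr10:82858956-82859255, plus strand: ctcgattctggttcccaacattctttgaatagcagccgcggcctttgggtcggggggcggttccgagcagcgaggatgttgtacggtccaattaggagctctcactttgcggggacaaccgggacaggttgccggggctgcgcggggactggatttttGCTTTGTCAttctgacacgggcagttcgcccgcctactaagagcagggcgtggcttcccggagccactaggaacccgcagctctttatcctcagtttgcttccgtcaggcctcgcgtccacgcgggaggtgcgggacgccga
Gstm1, GRCm38.p6 chr3:108017769-108018068, minus strand: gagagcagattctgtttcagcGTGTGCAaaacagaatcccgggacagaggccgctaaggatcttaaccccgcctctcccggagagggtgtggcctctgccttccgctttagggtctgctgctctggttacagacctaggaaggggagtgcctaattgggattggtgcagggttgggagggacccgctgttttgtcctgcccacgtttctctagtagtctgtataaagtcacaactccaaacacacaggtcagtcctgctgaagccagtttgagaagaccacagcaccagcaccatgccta
The Mt1 window holds 3 metal cores and the Mt2 window 4, beside 1 antioxidant core. The Txnrd1 window holds 1 antioxidant core, and the other 2 windows of that gene hold no match. Nqo1 and Txn1 had higher means with LPS in PEC (2.56 and 2.23) than Txnrd1 (1.93). Their windows, not printed, hold neither core. The Gstm1 window holds 1 metal core and no antioxidant core.

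**Figure D1:**
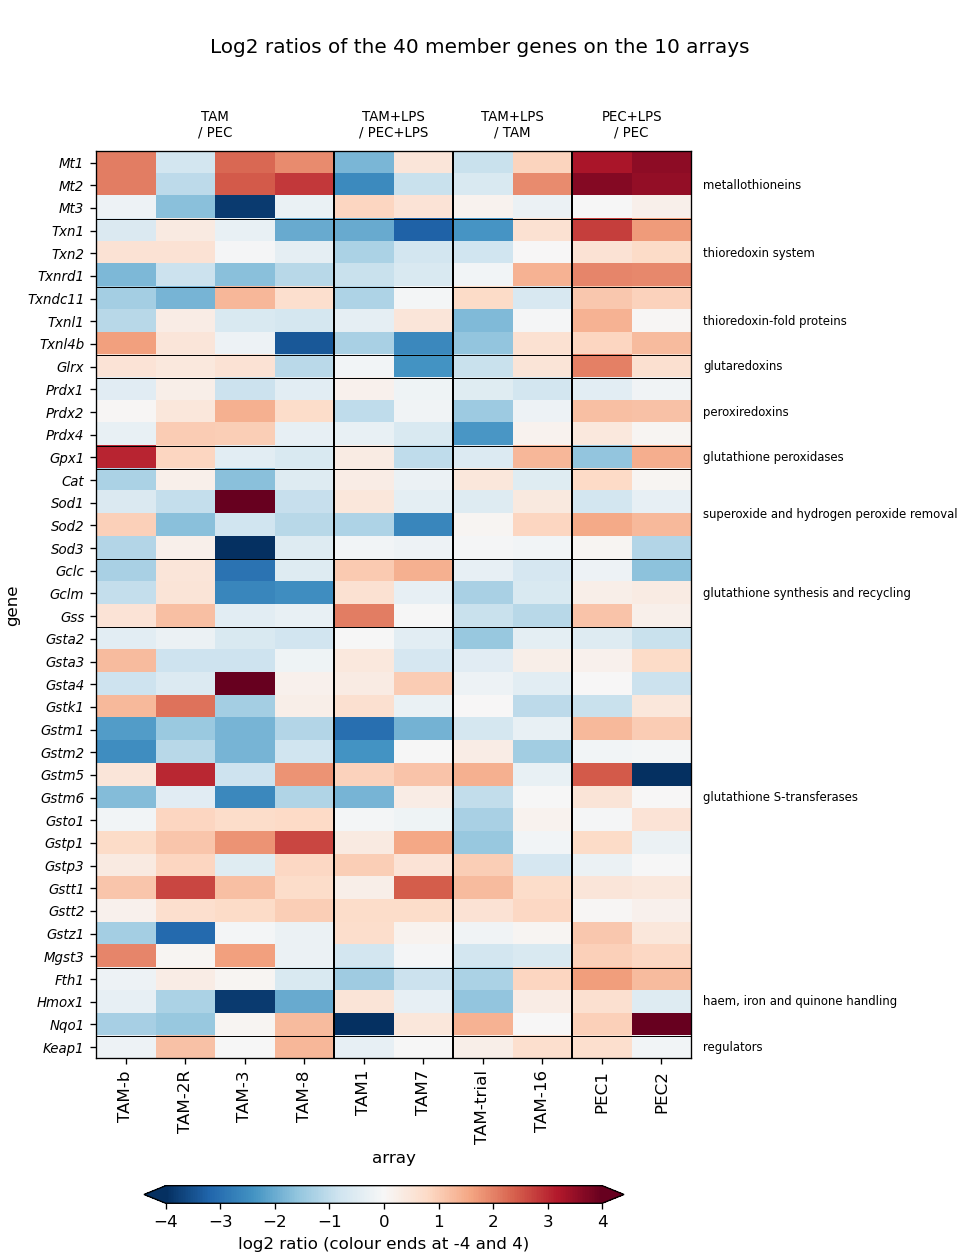
Log2 ratio of each of the 40 genes (rows, grouped by role) on each of the 10 arrays (columns, grouped by comparison, with the condition named first over the second); red is above 0 and blue below, and colours end at -4 and 4. Mt1 and Mt2 are dark red on PEC1 and PEC2 (3.28 to 3.66), and Gstm1 is blue on all 6 arrays of TAM against PEC, with TAM-2R and TAM1 turned.

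In untreated TAM, against untreated PEC, the glutathione S-transferases Gstm1, Gstm2 and Gstm6, haem oxygenase (Hmox1) and thioredoxin reductase (Txnrd1) lay lower on all 4 arrays and the transferases Gstp1, Gstt1 and Gstt2 higher, but none of the 40 genes passed the test (limma, Benjamini-Hochberg adjustment over 8905 genes and unnamed features, threshold 0.05). Of all genes and features 0.46% passed. At an unadjusted p under 0.05, 14 of the 40 genes differed, against 14.3% of all, 5 of them higher (12.5% of the genes, against 6.57% of all) and 9 lower (22.5%, against 7.74%). The 5 higher were Gstp1, Gstt1, Gstt2, Mt1 and Mt2, and the 9 lower were Hmox1, Gstm1, Gstm2, Gstm6, Mt3, Sod3, Gclm, Txnrd1 and Gstz1. Above 0 on all 4 arrays were 4 of the 40 genes, against 8.77% of all, and below 0 on all 4 were 8, against 10.8% of all. The count of higher genes was 3 without TAM-3 or without TAM-8. The median log2 ratio of the 40 genes was -0.13, against -0.02 over all.

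Gstm1, a mu-class enzyme that couples glutathione to electrophiles (Entrez 14862), had log2 ratios of -2.23 on TAM-b, -1.48 on TAM-2R, -1.86 on TAM-3 and -1.18 on TAM-8. All 4 arrays were thus lower in TAM, by a mean of 3.22-fold (-1.69 ± 0.46, SD, n = 4, adjusted p = 0.0595), and the gene ranked 46th of 8905 by p. With the exchanged arrays read the other way the mean was -0.95. The related Gstm2 lay between -2.48 and -0.79 (-1.56 ± 0.76, SD, n = 4, adjusted p = 0.214) and Gstm6 between -2.57 and -0.47 (-1.49 ± 0.89, SD, n = 4, adjusted p = 0.214), each below 0 on all 4 arrays. Gstm5, the other measured mu-class gene, did not follow them, with 0.48 on TAM-b, 3.03 on TAM-2R, -0.84 on TAM-3 and 1.80 on TAM-8.

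The transferases that lay above 0 on all 4 arrays belonged to other classes. Gstp1, a pi-class enzyme, had 0.76 on TAM-b, 1.12 on TAM-2R, 1.79 on TAM-3 and 2.67 on TAM-8 (1.59 ± 0.84, SD, n = 4, 3.00-fold, adjusted p = 0.165). Gstt1, a theta-class enzyme, had 1.11, 2.69, 1.19 and 0.73 in the same order (1.43 ± 0.86, SD, n = 4, adjusted p = 0.215), and its mean was 0.09 with the exchanged arrays read the other way, since its highest value is on TAM-2R. The other theta-class gene, Gstt2, lay between 0.16 and 0.97 (0.64 ± 0.34, SD, n = 4, adjusted p = 0.325). Gstm1, Gstm2 and Gstm6 on one side and Gstp1, Gstt1 and Gstt2 on the other thus had opposite signs on every untreated array. That follows from how they were picked, since each was taken for having 1 sign on all 4 arrays. Of all 15 transferases 9 had a mean above 0 and 6 below, where the median over all genes and features was -0.02. The rest included Gstz1, an enzyme of tyrosine breakdown, between -3.12 and -0.09, the alpha-class Gsta2, between -0.76 and -0.24 and below 0 on all 4 arrays, and Gsta4, an alpha-class enzyme that removes lipid aldehydes, which was at 4.98 on TAM-3 and between -0.84 and 0.17 on the others. Gstp3, the other measured pi-class gene, lay between -0.49 and 0.87 (mean 0.39, adjusted p = 0.623). Gsta3, Gstk1, Gsto1 and the microsomal Mgst3 had means between -0.14 and 0.86 with arrays on both sides of 0.

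Among NRF2 targets outside the transferases, Hmox1, which breaks down haem (Entrez 15368), had -0.33 on TAM-b, -1.25 on TAM-2R, -3.84 on TAM-3 and -2.01 on TAM-8 (-1.86 ± 1.49, SD, n = 4, 3.63-fold lower, adjusted p = 0.214). Its arrays were all below 0 but more than 3 log2 units apart. Txnrd1, which reduces thioredoxin with NADPH (Entrez 50493), was closer together, with -1.80, -0.87, -1.69 and -1.10 in the same order (-1.36 ± 0.45, SD, n = 4, 2.57-fold lower, adjusted p = 0.13). Gclm, the modifier subunit of the enzyme that starts glutathione synthesis, had -0.97, 0.52, -2.61 and -2.49, and its catalytic partner Gclc had -1.28, 0.49, -2.96 and -0.52, so that TAM-2R alone lay above 0 for both (adjusted p = 0.263 and 0.365). Gss, which completes glutathione, lay between -0.42 and 1.21. Nqo1, a quinone reductase, lay between -1.52 and 1.26, and Keap1 between -0.22 and 1.32, each with 2 of 4 arrays above 0. Fth1, the heavy chain of the iron store ferritin, lay between -0.61 and 0.29.

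The metallothioneins differed between the arrays. Mt1 (Entrez 17748) had 2.05 on TAM-b, 2.29 on TAM-3 and 1.90 on TAM-8 but -0.73 on TAM-2R, and Mt2 (Entrez 17750) had 2.06, 2.45 and 2.83 but -1.05 on TAM-2R. The 3 arrays with 1 channel order were thus high and the exchanged array low for both genes. Their means were 1.38 ± 1.42 and 1.57 ± 1.78 (SD, n = 4, adjusted p = 0.321 and 0.318), and 0.72 and 0.88 with a term for dye in the fit. As deposited, with channel 2 over channel 1, Mt1 was above 0 on 9 of all 10 arrays and Mt2 on 8, whatever conditions the channels held. Of all genes and features 2.84% were above 0 on 9 or 10 arrays in that form, and of the 40 genes Mt1 and Nqo1 were. Above 0 on 0 or 1 array were 4.71% of all, and of the 40 genes Prdx1 (0 of 10) and Gclc (1 of 10). The deposited sign of these 4 genes was thus nearly the same whatever the channels held. The dye coefficient was 1.31 for Mt1 (SE 0.30) and 1.38 for Mt2 (SE 0.39). Mt3, known mainly from brain, lay between -3.83 and -0.21.

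Enzymes that remove superoxide and peroxide showed no common direction in untreated TAM. Sod2, the manganese enzyme of mitochondria, had 0.96 on TAM-b, -1.68 on TAM-2R, -0.81 on TAM-3 and -1.10 on TAM-8 (adjusted p = 0.503). Catalase (Cat) had -1.26, 0.22, -1.67 and -0.51 (adjusted p = 0.356). Sod1, the copper and zinc enzyme of the cytosol, was at 5.50 on TAM-3 and between -0.96 and -0.57 on the others, and the secreted Sod3 was at -4.29 on TAM-3 and between -1.16 and 0.21 on the others. For both Sod1 and Sod3 the value of TAM-3 therefore sets the mean. Prdx2, a peroxiredoxin abundant in red blood cells, was above 0 on 4 of 4 arrays, between 0.05 and 1.42 (0.67 ± 0.57, SD, n = 4, adjusted p = 0.392), while Prdx1 lay between -0.86 and 0.23 and Prdx4, of the endoplasmic reticulum, between -0.32 and 1.02. Gpx1, a glutathione peroxidase, was at 3.06 on TAM-b and between -0.62 and 0.86 on the others. Txn1, Txn2, Glrx, Txndc11, Txnl1 and Txnl4b had means between -0.63 and 0.19, each with arrays on both sides of 0.

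**Figure D2:**
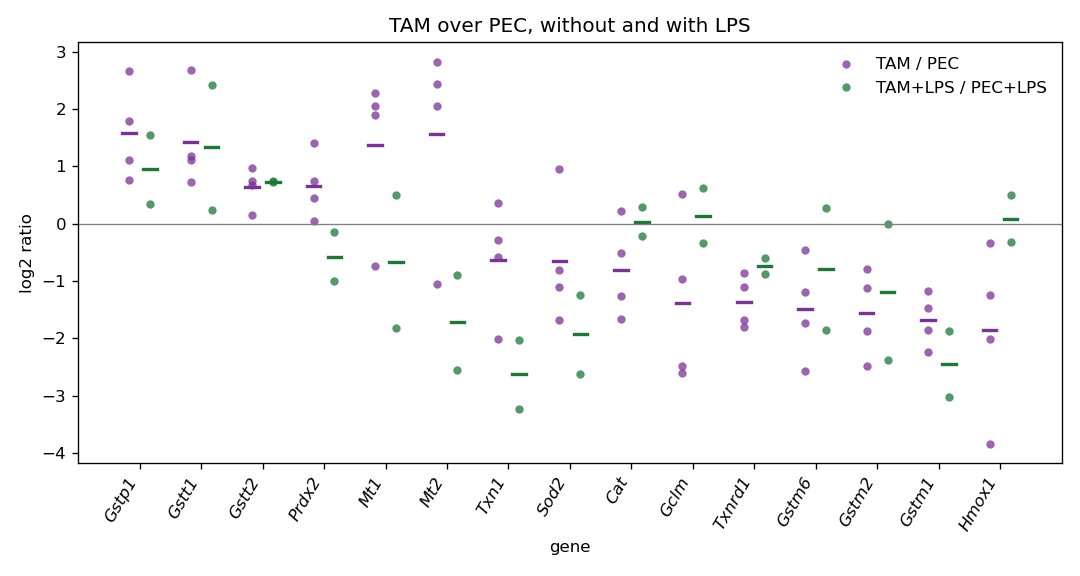
Log2 ratio of TAM over PEC for 15 of the genes; purple points are the 4 untreated arrays, green points the 2 arrays with LPS in both cell types, and bars their means. With TAM-2R and TAM1 turned, Gstm1 lies below 0 on all 6 arrays (-3.02 to -1.18) and Gstt1 and Gstt2 above 0 on all 6, while Mt1 and Mt2 have 3 untreated arrays near or above 2 and 1 below 0.

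LPS in TAM gave few values that the arrays shared. None of the 40 genes passed the test in TAM with LPS, against untreated TAM, and of all genes and features 0% passed, with 5.58% under an unadjusted p of 0.05 (limma). Of the 40 genes 1 lay under an unadjusted p of 0.05, Gsta2, and it was lower (4.68% of all were lower in that sense). That count was 0 without either array of LPS in PEC, either array of TAM with LPS against PEC with LPS, TAM-b, TAM-8 or TAM-trial, and 4 without TAM-16. Both arrays were above 0 for 5 of the 40 genes, against 22.4% of all, and both below 0 for 13, against 33.7% of all. The median of the 40 genes was -0.26, against -0.13 over all. Macrophage identity genes lay the same way, with 10 of 11 below 0 by mean (median -0.88, array medians -1.67 and 0.08), where 43.2% of all were above 0.

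Genes of glutathione synthesis lay below 0 on both arrays in TAM with LPS when no dye term was fitted. Gss had -0.90 on TAM-trial and -1.10 on TAM-16 (-1.0 ± 0.15, SD, n = 2, adjusted p = 0.842), Gclm had -1.30 and -0.60 (adjusted p = 0.885) and Gclc had -0.31 and -0.66 (adjusted p = 0.948). Those were all 3 measured genes of the group. With a dye term Gclm was at 0.00, Gss at -0.21 and Gclc at 0.06, on the other side of 0, so that the place of all 3 below 0 depends on how the dye is treated. Gsta2 had -1.52 and -0.39 (adjusted p = 0.827), and Txnl1, a thioredoxin-like protein that associates with the proteasome, had -1.77 and -0.04. On the other side of 0 were the theta-class transferases, with 1.28 and 0.74 for Gstt1 (adjusted p = 0.842) and 0.59 and 0.83 for Gstt2 (adjusted p = 0.832), as well as Keap1, with 0.23 and 0.67.

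All of the 40 genes but the 5 above 0 and the 13 below 0 on both arrays had TAM-trial and TAM-16 on opposite sides of 0. Of all genes and features 22.4% were above 0 on both arrays and 33.7% below. TAM-trial and TAM-16 gave -0.89 and 0.88 for Mt1, -0.60 and 1.88 for Mt2, and -2.37 and 0.60 for Txn1, the cytosolic thioredoxin (Entrez 22166). Txnrd1 had -0.12 and 1.38, Hmox1 -1.57 and 0.30, and Fth1 -1.25 and 0.85. TAM-trial was the lower array in each of these. The same held for Glrx, Gpx1, Gsta3, Gsto1, Gstz1, Prdx4, Sod1, Txn2 and Txnl4b, whose arrays also lay on opposite sides of 0. TAM-trial was the higher array for Cat, Gstk1, Gstm2, Gstm5, Gstp3, Mt3 and Txndc11, again with arrays on opposite sides of 0. Gstm2, for example, had 0.31 on TAM-trial and -1.38 on TAM-16, and Gstm5 1.43 and -0.29. TAM-trial and TAM-16 came from different prints of the array, v9p2 and v3p6, and whether the print has a part in these differences was not tested. Nqo1 had 1.39 and 0.01, Sod2 0.07 and 0.86, Sod1 -0.53 and 0.38, Cat 0.45 and -0.47, Prdx1 -0.48 and -0.73, Prdx2 -1.45 and -0.20, and Prdx4 -2.33 and 0.14.

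In PEC, LPS gave ratios above 0 on both arrays for 24 of the 40 genes, among them Mt1, Mt2, Nqo1, Txn1 and Txnrd1, which had the highest means. For comparison 31.4% of all genes and features were above 0 on both arrays, and 6 of the 40 were below 0 on both, against 32.5% of all. None of the 40 passed the test, and 0.0112% of all did, which is 1 gene. At an unadjusted p under 0.05, 8 of the 40 differed (20%, against 8.14% of all), all 8 of them higher (5.73% of all were) and 0 lower (2.41% of all). The 8 were Mt1, Mt2, Txn1, Txnrd1, Fth1, Gstm1, Prdx2 and Sod2, and the count was 4 without PEC1 and 4 without PEC2. The median log2 ratio of the 40 genes was 0.36, against -0.04 over all. Of 11 measured macrophage identity genes 10 had a mean above 0 here (median 0.77), where 48.1% of all did.

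Mt1 had 3.28 on PEC1 and 3.59 on PEC2, a mean 10.8-fold higher ratio with LPS (3.44 ± 0.22, SD, n = 2, adjusted p = 0.302). Mt2 had 3.66 and 3.51, a mean of 12-fold (3.58 ± 0.10, SD, n = 2, adjusted p = 0.374). The printed windows of both genes hold at least 3 metal cores, as do 1.97% of all windows. So does the window of Gclm, which had 0.23 on PEC1 and 0.33 on PEC2. Whether the cores have a part in these ratios was not tested. Both arrays had the same channel order, and with a dye term, estimated from the exchanged arrays of other comparisons, the means were 2.13 and 2.20. Mt3, by contrast, had -0.00 and 0.19. With weights for the arrays, Mt1, Mt2 and Txnrd1 passed (adjusted p = 0.0338, 0.038 and 0.0353). That fit had no dye term, and its weights were estimated from these same arrays.

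Txn1 and the enzyme that reduces it were both above 0 with LPS in PEC. Txn1 had 2.77 on PEC1 and 1.69 on PEC2 (2.23 ± 0.76, SD, n = 2, 4.70-fold, adjusted p = 0.452), and Txnrd1 had 1.95 and 1.91 (1.93 ± 0.03, SD, n = 2, 3.81-fold, adjusted p = 0.304). Txn2, the thioredoxin of mitochondria, had 0.56 and 0.76. With a dye term Txn1 had a mean of 2.87 and Txnrd1 one of 2.07, so these genes did not move towards 0 as the metallothioneins did. Glrx, which removes glutathione from proteins, had 2.0 and 0.64 (adjusted p = 0.681). Of the thioredoxin-fold proteins with other roles, Txndc11 had 1.08 and 0.92, Txnl4b 0.86 and 1.25, and Txnl1 1.39 and 0.04.

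Some of the NRF2 targets outside the transferases that were named for untreated TAM lay above 0 with LPS in PEC. Nqo1, Txnrd1, Fth1, Gss and Gclm did so on both arrays, as did 31.4% of all genes and features. Hmox1 had arrays on both sides of 0 and Gclc lay below 0 on both. Prdx1, whose window holds an antioxidant core, also lay below 0 on both (-0.41 and -0.13). Nqo1 had 0.95 on PEC1 and 4.17 on PEC2 (2.56 ± 2.27, SD, n = 2, adjusted p = 0.69), and its mean was 0.82 with a dye term. Hmox1 had 0.64 and -0.51 (adjusted p = 0.991), Gclm 0.23 and 0.33 (adjusted p = 0.981), Gclc -0.21 and -1.64 (adjusted p = 0.911), and Gss 1.13 and 0.21. Gstm1 had 1.3 and 1.02 (1.16 ± 0.20, SD, n = 2, 2.23-fold, adjusted p = 0.5), while Gstm2 had -0.11 and -0.09. Gstm5 was at 2.45 on PEC1 and -5.28 on PEC2, so its arrays lie on opposite sides of 0. The other transferases had means between -0.72 (Gsta2) and 0.89 (Mgst3). Fth1 had 1.68 and 1.27 (1.48 ± 0.29, SD, n = 2, 2.78-fold, adjusted p = 0.455), and Keap1 0.68 and -0.10.

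Sod2, widely known as an LPS-induced gene of macrophages, had 1.5 on PEC1 and 1.29 on PEC2 (1.39 ± 0.15, SD, n = 2, 2.63-fold, adjusted p = 0.61). Its features differed, with means of 2.27 and 0.52 when tested singly (adjusted p = 0.479 and 0.967). Prdx2 had 1.2 and 1.17 (1.18 ± 0.01, SD, n = 2, adjusted p = 0.54), with 1.32 and 1.05 for its features. The other enzymes of superoxide and peroxide removal lay nearer 0 or on both sides of it, with Cat at 0.81 and 0.06, Sod1 at -0.74 and -0.32, Sod3 at 0.06 and -1.16, Gpx1 at -1.59 and 1.45, Prdx1 at -0.41 and -0.13, and Prdx4 at 0.42 and 0.09.

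The LPS response was lower in TAM than in PEC for 30 of the 40 genes by mean and higher for 10, where 44.7% of all were higher, and the difference passed the test for none. Of all genes and features 0% passed, and 6.87% had an unadjusted p under 0.05 for the difference (limma contrast). At that level 6 of the 40 were lower in TAM (15%, against 5.97% of all) and 0 higher (0.898% of all), namely Mt1, Mt2, Txn1, Prdx2, Gstm1 and Fth1. The count of 6 was 0 without TAM-trial, 1 without PEC1, 2 without PEC2 and 9 without TAM-16. Both TAM arrays lay below both PEC arrays for 19 of the 40 genes, against 27.4% of all, and above both for 2, against 14.1% of all. Both TAM arrays were below 0 and both PEC arrays above 0 for 7 of the 40 (17.5%, against 8.84% of all), and the reverse held for 0 (5.41% of all). The median difference was -0.81 for the 40 genes and -0.11 over all. The 11 identity genes were all lower in TAM by mean, with a median difference of -1.42 and 5 of them lower at an unadjusted p under 0.05.

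Mt1 had the largest difference, with a mean of -0.00 in TAM and 3.44 in PEC (difference -3.44, 95% interval -5.98 to -0.90, adjusted p = 0.719). It did not move with a dye term, because all 4 arrays of these comparisons share a channel order. Txn1 had -0.88 in TAM and 2.23 in PEC (difference -3.12, interval -5.49 to -0.74, adjusted p = 0.719) and Mt2 had 0.64 in TAM and 3.58 in PEC (difference -2.94, interval -5.82 to -0.07, adjusted p = 0.723). Prdx2 had -0.82 in TAM and 1.18 in PEC (difference -2.01, interval -3.53 to -0.48, adjusted p = 0.719). For these 4 genes the intervals leave out 0 before adjustment, and the adjusted p-values lie far above the threshold. Gstm1 differed by -1.66, Fth1 by -1.68, Gss by -1.67, Txnl1 by -1.62, Mgst3 by -1.56, Glrx by -1.50, Txnrd1 by -1.30 and Gclm by -1.23, with adjusted p between 0.719 and 0.95. Hmox1 differed by -0.70, Nqo1 by -1.86, Sod2 by -0.93, Cat by -0.45, Prdx4 by -1.35 and Prdx1 by -0.33. Above 0 were Gstm5 (1.99), Gstt2 (0.60), Gstt1 (0.54), Sod3 (0.47), Sod1 (0.46), Gpx1 (0.46), Gclc (0.43), Gstp3 (0.27), Keap1 (0.15) and Gsta4 (0.10), with adjusted p from 0.976 to 0.998.

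**Figure D3:**
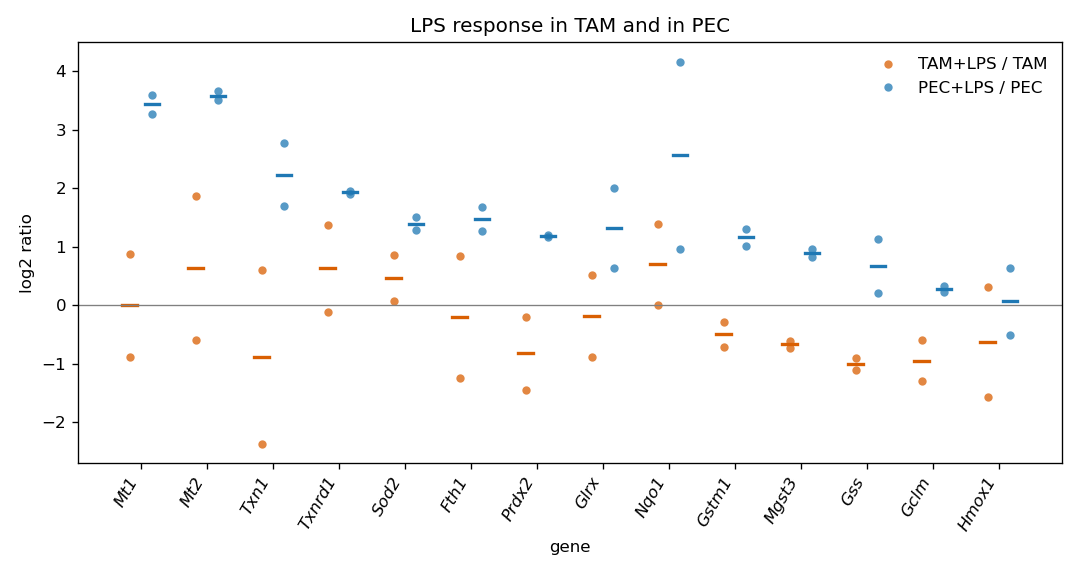
Log2 ratio with LPS over untreated for 14 of the genes; orange points are the 2 TAM arrays, blue points the 2 PEC arrays, and bars their means. Mt1 and Mt2 lie between 3.28 and 3.66 on the PEC arrays and between -0.89 and 1.88 on the TAM arrays, and for Gss, Gclm, Gstm1, Mgst3 and Prdx2 both TAM arrays lie below 0 and both PEC arrays above it.

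When both cell types had LPS, the thioredoxins, Gstm1 and Sod2 lay lower in TAM than in PEC. None of the 40 genes passed the test, against 0.0674% of all genes and features. At an unadjusted p under 0.05, 4 of the 40 were lower (Gstm1, Txn1, Sod2 and Txn2; 10%, against 6.92% of all) and 0 higher (2.08% of all), where 8.99% of all differed either way. Both arrays were below 0 for 18 of the 40, against 28.2% of all, and above 0 for 9, against 32.9% of all. The median was -0.16 for the 40 genes and 0.08 over all. Of the 11 identity genes 8 lay below 0 by mean (median -1.12), 5 of them at an unadjusted p under 0.05. Signs on all arrays with LPS were opposite to those on all arrays without for 3 of the 40 (7.5%, against 4.12% of all). This comparison rests on TAM1, which was turned, and TAM7, which was not, so a dye effect of a gene falls out of its mean.

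Gstm1 had -3.02 on TAM1 and -1.88 on TAM7, a mean 5.46-fold lower ratio in TAM (-2.45 ± 0.81, SD, n = 2, adjusted p = 0.0793). It was thus below 0 on all 6 arrays of TAM against PEC, with and without LPS. It passed with the arrays scaled (adjusted p = 0.0108), with the place of the features corrected (0.0468), with array weights (0.0128) and with a loop fit, which adds the indirect route through the other comparisons (0.00705). With TAM1 and TAM-2R read the other way its mean was 0.57, and that of Txn1 was -0.60. Txn1 had -2.03 and -3.23 (-2.63 ± 0.85, SD, n = 2, 6.19-fold lower, adjusted p = 0.3), and it passed with the loop fit (adjusted p = 0.0446). Txn2 had -1.25 and -0.72 (adjusted p = 0.528) and Txnrd1 -0.88 and -0.59 (adjusted p = 0.766), so the whole thioredoxin group of 3 was below 0 on both arrays.

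Sod2 had -1.24 on TAM1 and -2.62 on TAM7 (-1.93 ± 0.98, SD, n = 2, 3.81-fold lower, adjusted p = 0.371), with -1.20 and -2.66 for its features singly. Txnl4b, a protein of the splicing machinery with a thioredoxin fold, had -1.29 and -2.58 (adjusted p = 0.678), Fth1 -1.42 and -0.87 (adjusted p = 0.568) and Glrx -0.10 and -2.38. The metallothioneins had -1.82 and 0.49 for Mt1, -2.56 and -0.89 for Mt2, and 0.87 and 0.56 for Mt3. The exchanged array TAM1 was the lower one for Mt1 and Mt2, as TAM-2R was among the untreated arrays.

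Above 0 on both arrays were Gstt1, with 0.25 and 2.42 (1.33 ± 1.54, SD, n = 2, adjusted p = 0.565), Gclc, with 1.06 and 1.43 (adjusted p = 0.738), Gstm5, with 0.91 and 1.13, Gstp1, with 0.35 and 1.55 (adjusted p = 0.76), and Gstt2, with 0.74 on each. The theta-class genes Gstt1 and Gstt2 were thus above 0 on all 6 arrays of TAM against PEC, and also on all 4 arrays with LPS in TAM and in PEC. Nqo1 had -5.95 on TAM1 and 0.46 on TAM7 (adjusted p = 0.613), so its mean rests on 1 array. Hmox1, low in untreated TAM, had 0.50 and -0.32, Gclm 0.62 and -0.34, Gss 2.03 and -0.01, Sod1 0.47 and -0.38, Cat 0.29 and -0.22, and Keap1 -0.33 and -0.01. Prdx1 had 0.16 and -0.17, Prdx2 -1.0 and -0.14, and Prdx4 -0.31 and -0.62.

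The 4 comparisons form a loop. TAM with LPS over untreated PEC can thus be reached by way of untreated TAM or by way of PEC with LPS. Exact measurements would give the same sum if each condition held the same material on every array. The labels place the PEC of the untreated TAM arrays in mice with a tumour and mention no tumour for PEC1 and PEC2. Whether that has a part in the gaps was not tested. For 25 of the 40 genes (62.5%, against 61.5% of all) the sums differed by less than 1 log2 unit, and the median absolute gap was 0.74, against 0.76 over all. The signed gap, by way of TAM minus by way of PEC, had a median of -0.56 for the 40 genes and -0.18 over all. Mt2 reached 2.21 by way of TAM and 1.86 by way of PEC, Gstt1 2.44 and 1.80, Gstp1 0.78 and 1.21, and Gstm1 -2.18 and -1.29, each with the same sign by both routes. Mt1 reached 1.37 and 2.77. The largest gaps were those of Gclm (-2.33 by way of TAM and 0.42 by way of PEC), Hmox1 (-2.49 and 0.15), Gss (-0.74 and 1.68), Gstz1 (-1.23 and 1.18) and Mt3 (-1.55 and 0.81). For these 5 genes the routes differ in sign, so their single comparisons do not add up, and Txnrd1, with -0.73 and 1.19, is among the others of that kind.

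**Figure D4:**
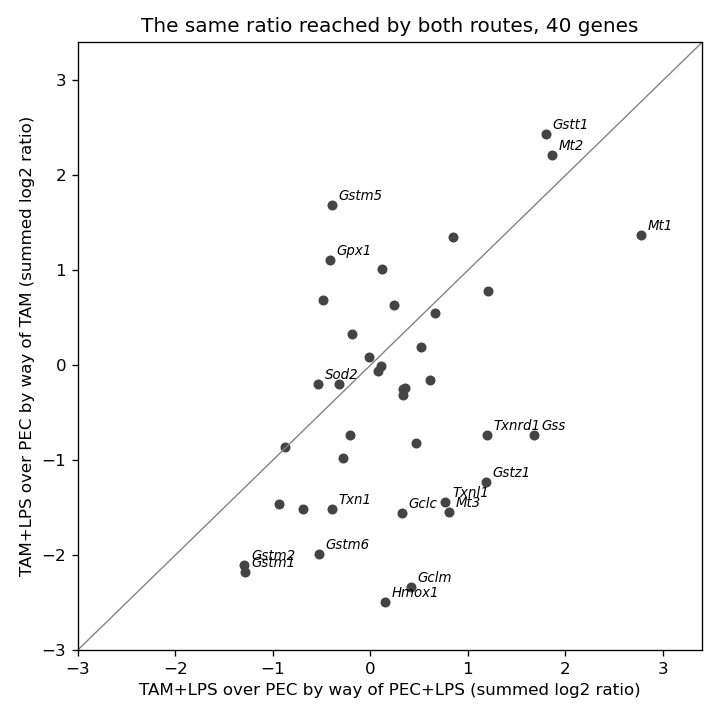
Summed log2 ratio of TAM with LPS over untreated PEC for each of the 40 genes, by way of PEC with LPS (horizontal) and by way of untreated TAM (vertical); the line marks equal sums. Gstt1, Mt2 and Gstm1 have the same sign on both axes, while Gclm and Hmox1 lie more than 2.6 log2 units below the line.

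Genes that feed or oppose the same chemistry were counted in 6 lists, and none of their measured members passed the test in any of the 5 tests (limma). In the list for NADPH oxidase, which makes the superoxide, 5 of 9 genes were measured, and 4 of them had means above 0 with LPS in PEC, where 48.1% of all did. Cyba and Rac2, subunits of that enzyme, were at 1.86 and 1.93 there (adjusted p = 0.423 and 0.407), and Cyba was at -1.74 in TAM with LPS over PEC with LPS (adjusted p = 0.357). In the list for cystine and glutathione transport, 5 of 14 were measured. Of these Slc3a2, the heavy chain of the cystine and amino acid transporters, was at 1.66 with LPS in PEC (adjusted p = 0.452) and at -1.57 in TAM with LPS over PEC with LPS (adjusted p = 0.418).

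In the list of NRF2 partners and further NRF2 targets, 11 of 19 genes were measured and 10 of the 11 had an LPS response lower in TAM than in PEC by mean, where 44.7% of all were higher. The median difference of the 11 was -0.59. Atf4, a stress-response factor that works beside NRF2, was at -1.60 in untreated TAM (adjusted p = 0.159) and at -2.34 in TAM with LPS over PEC with LPS (adjusted p = 0.235). For iron and haem, 9 of 13 were measured, and Trf, which carries iron in plasma, was at -1.82 in untreated TAM (adjusted p = 0.0697) and at -2.60 with LPS in both (adjusted p = 0.094). The transferrin receptor Tfrc was at 3.73 with LPS in both (1.21 and 6.24 on its arrays, adjusted p = 0.235), and Hpx, which carries haem in plasma, at 1.16 (adjusted p = 0.697). For zinc and copper, 6 of 8 were measured. Mtf1, the factor that binds metal cores, was at -0.22 with LPS in PEC (adjusted p = 0.977), and in untreated TAM the copper chaperone of Sod1, Ccs, was at 1.3 (adjusted p = 0.139, above 0 on all 4 arrays) and the zinc importer Slc39a14 at -1.05 (adjusted p = 0.216). For NADPH supply, 6 of 11 were measured, with Mthfd2, a folate enzyme of mitochondria, at -4.30 with LPS in PEC (adjusted p = 0.411) and Nnt, which makes NADPH in mitochondria, at 0.88 (adjusted p = 0.672).

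Markers of the cell types that a dish could hold were read beside these values. Of 9 measured peritoneal macrophage markers, 4 passed the test as lower in untreated TAM (Saa3, Slpi, Fcna and Cd5l). In TAM with LPS over PEC with LPS 1 passed as lower (Fcna). The list medians were -1.59 and -2.61. By mean 7 of the 9 lay below 0 in untreated TAM and 2 above (F5 at 0.36 and Ltbp1 at 0.39). The list was chosen with earlier results of these arrays known, so the genes that passed are no independent support. Saa3 and Slpi also lay above 0 with LPS in PEC (2.85 and 2.46). Of 11 measured macrophage identity genes none passed, and the median was -0.66 in untreated TAM. Neutrophil markers (8 measured) had a median of 0.88 in untreated TAM, with array medians from -0.15 to 2.15, and erythroid and platelet markers (7 measured) one of 0.42, with array medians from -0.93 to 0.63. Of 11 measured fibroblast and stroma markers 8 had a mean above 0 there and 3 below (median 0.46, array medians from -0.40 to 1.71). The median over all genes and features was -0.02. Sparc was at 4.23 (adjusted p = 0.123), Col1a2 at 1.68 (-2.41 to 6.25 on its arrays), Pdgfra at 1.62 and Lum at 1.27 (adjusted p = 0.303). The 3 below 0 were Thy1 (-0.43), Pdgfrb (-0.16) and Tagln (-0.08). Of 7 epithelial, tumour and mesothelial markers 3 had a mean above 0 and 4 below (median -0.12). Krt8 was at 1.94 (0.31 to 4.39 on its arrays, adjusted p = 0.33) and Cdh1 at -0.95 (-2.49 to 0.05, adjusted p = 0.334). With LPS the erythroid Alas2, a haem synthesis enzyme of red cell precursors, was at 2.76 in TAM (adjusted p = 0.72) and at 2.87 in PEC (adjusted p = 0.173), beside list medians of 0.43 and 0.33. In PEC with LPS the T cell marker Cd3d was at 5.215 (adjusted p = 0.173), with 7 of 9 T and NK cell markers below 0 (median -0.30). The B cell marker Cd79a was at 3.83 there (adjusted p = 0.64), with 4 of 5 B and plasma cell markers below 0 (median -0.16). Endothelial markers (5 measured) had a median of -0.20 there, and mast cell and eosinophil markers (3 measured) one of -0.02. Sparc, Col1a2, Pdgfra, Lum, Thy1, Pdgfrb, Tagln, Krt8, Cdh1, Alas2, Cd3d and Cd79a were picked after their values were seen. Log ratios cannot show that a marker is absent, and the part of the cell mixture in the values of the 40 genes was not tested.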

How the data were processed

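Total RNA of macrophages was hybridised to 10 cDNA arrays with 2 channels. Each deposited column holds log ratios of the channels, taken as log2. The authors' scanning, spot correction, normalization, log base and dyes were not given in the sources used here. The choice of base 2 rests on the largest absolute value, 11.687, which would be a ratio of 3297 in base 2 and of 119014 in base e, above the scanner limit of 65535. No signal intensity was used, so no filter on dim spots was made. The number of arrays limits the precision.

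Ratios run from channel 2 over channel 1, with the sign of TAM-2R and TAM1 reversed. Features were named by the platform annotation (7486 with 1 symbol, 483 with several, 1627 with none), and features of 1 gene were averaged, which left 8905 genes and unnamed features. The R 4.3.3 package limma 3.58.1 (eBayes after lmFit) was fitted on all 10 arrays with 1 mean per comparison, 6 residual and 3.841 prior degrees of freedom. Two-sided p-values were adjusted by Benjamini-Hochberg within a comparison, with a threshold of 0.05. The scripts were tested on simulated data. Genes named with full statistics were the 4 highest and 4 lowest with 1 sign on every array, and a list of well-known members was given in every comparison. The members and lists were chosen with earlier results of these data known. Alternatives were the other coding of the exchanged arrays, centring, scaling, a correction for feature place, a dye term, a loop fit, array weights, features singly, own arrays only, print v3p6 only and each array left out. Dye term and loop fit together, and loop fit with the other coding, were alternatives chosen after seeing the data.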

Additional observations from a re-analysis of the deposited data

Results flagged for a closer look

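If 4 arrays scatter alike, chance puts 1 array far from the other 3 for about 1 gene in 20. In the 4 arrays of untreated TAM over PEC, 1 array stood that far from the other 3 for 4 of the 40 genes. These were Mt1 on TAM-2R (-0.73, with the others between 1.90 and 2.29), Glrx on TAM-8 (-1.07, with the others between 0.43 and 0.58), Gsto1 on TAM-b (-0.12, with the others between 0.72 and 0.85) and Sod1 on TAM-3 (5.50, with the others between -0.96 and -0.57). For Mt1 the array that stands apart is the exchanged one, and the sign of that value would be opposite with the other coding. The arrays are not alike, since TAM-2R was exchanged and TAM-8 came from another print. The share of such genes among all genes and features was not computed. Whether 4 of 40 is more than usual on these arrays was therefore not tested.

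For 7 genes both arrays with LPS in TAM were below 0 and both with LPS in PEC above 0, a pattern held by 8.84% of all genes and features (17.5% of the 40). The difference of the responses was -1.23 for Gclm, -1.67 for Gss, -1.66 for Gstm1, -0.75 for Gstm6, -1.56 for Mgst3, -2.01 for Prdx2 and -1.62 for Txnl1, and none passed the test of the difference (limma, adjusted p from 0.719 to 0.998). For 3 genes the ratio of TAM over PEC had opposite signs on all arrays with LPS and all without, as for 4.12% of all (7.5% of the 40). The difference, with LPS minus without, was 1.62 for Gstz1, 2.21 for Mt3 and -1.24 for Prdx2, and this difference was not tested.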

How the results depend on the processing

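No paired analysis was possible because the labels give no number that pairs arrays across comparisons. The count of genes past the test was 0 of 40 in each of the 5 tests, and 0 (lowest) to 0 (highest) with each array left out. In untreated TAM over PEC it was 1 with the loop fit. With LPS in PEC it was 3 with array weights. In TAM with LPS over PEC with LPS it was 1 with the arrays scaled, 1 with place corrected, 1 with array weights, 2 with the loop fit and 2 with the loop fit and a dye term. Over all genes, the calls ranged from 0 (other coding) to 45 (loop fit) against 41 in untreated TAM over PEC, from 0 to 85 (without PEC1) against 1 with LPS in PEC, from 0 to 3 (without TAM-16) against 0 with LPS in TAM, from 0 to 137 (loop fit) against 6 with LPS in both, and from 0 to 47 (without PEC1) against 0 for the difference of responses.

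Over 840 values of the 38 results given with full statistics, 8 turned sign at least once. With LPS in PEC these were Sod1 (0.0736, loop fit with the other coding) and Prdx1 (0.19, place corrected, and 0.0402, dye term). With LPS in TAM they were Gss (0.47, loop fit and dye term), Gclm (0.0039, dye term, and 0.76, loop fit and dye term), Sod2 (-0.0681, place corrected) and Nqo1 (-1.04, dye term, and -0.92, loop fit and dye term). With LPS in both they were Gstm1 (0.57, other coding) and Gclc (-0.12, loop fit with the other coding). The cause was not tested. Over all 40 genes, at least 1 setting turned the sign for 18 in untreated TAM over PEC, 31 with LPS in TAM, 21 with LPS in PEC, 29 with LPS in both and 23 for the difference of responses. Of those with 1 sign on every array, or TAM and PEC arrays that do not overlap, these were 1 of 12, 9 of 18, 11 of 30, 16 of 27 and 6 of 21. Within print v3p6, 3 arrays of untreated TAM over PEC and 1 of each other comparison remain, and 0 of the 40 genes passed in any of the 5 tests. At an unadjusted p under 0.05 the settings gave 2 to 7 higher and 4 to 10 lower genes in untreated TAM over PEC, 2 to 12 higher with LPS in PEC, 0 to 4 lower with LPS in TAM, 0 (other coding) to 12 lower (loop fit) with LPS in both, and 0 to 9 lower for the difference of responses. Standard errors of a gene's mean had a median of 0.44 in untreated TAM over PEC and of 0.623 in each of the other direct comparisons.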
